A study of Mus musculus with 14 samples.

Results

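RNA-Seq of tumor-bearing mice and of cultured pancreatic stellate cells (PSCs) from mice was examined for 10 cation channel genes that sense force or belong to the same families, matched by gene symbol: Piezo1, Piezo2, Trpv4, Trpv2, Trpc1, Trpm7, Pkd1, Pkd2, Tmem63a and Tmem63b. All 10 were listed among the 54532 genes of the liver count table and among the 16481 genes of the PSC table. There were 8 liver libraries, 2 labelled WT, 3 labelled TRPV4-KO and 3 of WT mice treated with GSK219, a TRPV4 antagonist, at 10 mg/kg by gavage each day. Mice aged 8 to 12 weeks had received 100000 KPCY pancreatic cancer cells, which carry functional TRPV4, in the tail of the pancreas 20 days before their livers were collected. The TRPV4-KO is global, and the Methods call Piezo fl/fl mice WT. Whether WT controls received the gavage vehicle was not stated, nor which part of Trpv4 is deleted. PSCs grown on Matrigel for 3 days were given the PIEZO1 agonist Yoda1 at 25 μM or its solvent DMSO, with 3 libraries each. The labels give each DMSO library a code name shared with 1 Yoda1 library, and such a pair is called a preparation here, though what the code stands for is not stated. The treatment time is 24 hours in the Methods and 72 hours in a figure legend.

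PIEZO1 and PIEZO2 are large channels that open when the membrane is stretched and let in calcium. TRPV4 and TRPV2 are calcium-permeable channels of the TRP family that respond to osmotic, thermal and lipid stimuli. In pancreatic stellate cells, PIEZO1 and TRPV4 are known for carrying calcium signals after mechanical stimulation. TRPC1 contributes to receptor-driven and store-operated calcium entry, and TRPM7 joins a magnesium-permeable pore to a kinase. Polycystin-1, encoded by Pkd1, and the channel polycystin-2, encoded by Pkd2, form a complex at primary cilia and are mutated in polycystic kidney disease. TMEM63A and TMEM63B are channels gated by stretch or osmotic change.

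Liver libraries held 15567031 to 17395299 counts, and between 27312894 and 39070539 reads per PSC library could be recovered. The livers were rich in hepatocyte transcripts such as Alb, at a mean of 38006 CPM (counts scaled to library size by TMM) in WT. In the PSCs the stellate and fibroblast genes Acta2, Des, Pdgfrb, Col1a1 and Vim were abundant, with Acta2 at a deposited value of 128827 ± 7079 (SD, n = 3) in DMSO. Lrat and Gfap, markers of quiescent stellate cells, were not analysed here in the PSCs, so they give no check of the PSC label. Genes of ducts and mesothelium were also present in the PSCs (Krt7, 9175 ± 1696, and Krt8, 31607 ± 5767, both SD, n = 3 with DMSO). Xist, which is transcribed in female cells, had at least 13681 counts in 3 livers, which were replicate 1 of WT and replicate 3 of both TRPV4-KO and GSK219, and at most 7 in the other 5. The labels call the liver libraries of a group biological replicates.

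Sequence upstream of a gene is shown for Trpv2, which passed the test in PSCs. It is also shown for Trpv4 and Piezo1, the channels the mice and the agonist act on. Tmem63a is shown as well, the only one of the genes searched with the CArG box named below. Piezo2 was left out of the promoter search. For the other 9 of the 10 genes, the RefSeq promoters (build GRCm38.p6, 250 bases before to 50 after the start) were matched by symbol. They were searched on both strands for the GC box GGGCGG, the AP-1 motif TGANTCA, the TEAD motif GGAATG, the cAMP response element TGACGTCA and the CArG box, and matches are in capitals. Trpv2 has 3 RefSeq starts, and the window of the third (chr11:62575377-62575676) held 1 TEAD motif on the other strand. In the window of the first (chr11:62574236-62574535, plus strand) none of these was found:
Trpv2: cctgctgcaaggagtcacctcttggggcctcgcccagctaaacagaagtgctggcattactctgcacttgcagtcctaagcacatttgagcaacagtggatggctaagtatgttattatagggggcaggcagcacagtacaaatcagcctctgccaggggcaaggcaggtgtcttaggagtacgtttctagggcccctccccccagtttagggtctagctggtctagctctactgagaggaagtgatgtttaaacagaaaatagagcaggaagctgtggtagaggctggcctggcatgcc
The Trpv4 promoter (chr5:114658372-114658671, minus strand) held 3 GC boxes:
Trpv4: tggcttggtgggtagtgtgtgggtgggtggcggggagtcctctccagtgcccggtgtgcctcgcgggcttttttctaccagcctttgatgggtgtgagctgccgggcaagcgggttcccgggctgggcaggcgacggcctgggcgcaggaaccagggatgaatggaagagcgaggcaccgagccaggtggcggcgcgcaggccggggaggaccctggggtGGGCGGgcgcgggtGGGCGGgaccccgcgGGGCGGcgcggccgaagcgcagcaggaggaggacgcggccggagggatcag
The Piezo1 promoter (chr8:122551280-122551579, minus strand) held 1 GC box:
Piezo1: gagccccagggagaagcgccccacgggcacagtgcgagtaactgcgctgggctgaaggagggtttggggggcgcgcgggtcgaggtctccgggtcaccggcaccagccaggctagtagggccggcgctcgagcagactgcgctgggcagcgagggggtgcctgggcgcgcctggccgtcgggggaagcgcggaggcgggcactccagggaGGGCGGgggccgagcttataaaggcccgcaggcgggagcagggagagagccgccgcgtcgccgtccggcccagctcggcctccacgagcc
The Tmem63a promoter (chr1:180942268-180942567, plus strand) held 1 GC box on the other strand and 1 CArG box:
Tmem63a: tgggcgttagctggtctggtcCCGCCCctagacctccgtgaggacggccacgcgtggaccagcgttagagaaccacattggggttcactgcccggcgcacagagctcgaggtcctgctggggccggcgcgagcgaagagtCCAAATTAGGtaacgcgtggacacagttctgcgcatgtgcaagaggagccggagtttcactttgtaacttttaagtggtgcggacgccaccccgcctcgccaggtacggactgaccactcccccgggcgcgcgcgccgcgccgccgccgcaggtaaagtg
Of the genes searched but not printed, Pkd1 held 4 GC boxes on the given strand and 1 on the other. Tmem63b held 1 and 2, and Trpc1 held 3 on the other strand. Pkd2 held 1 TEAD motif, and Trpm7 held none of the motifs. Of all 32851 RefSeq promoters, 35.7% held a GC box, 7.81% the AP-1 motif, 14.7% the TEAD motif, 1.79% the cAMP response element and 1.63% a CArG box. G and C made up 75.0% of the Piezo1 window and 73.0% of the Trpv4 window, against 53.0% for Trpv2 and a median of 52.7% over all promoters. The share was 76.0% for Tmem63b, 66.7% for Pkd1, 65.0% for Tmem63a, 63.7% for Trpm7, 63.0% for Trpc1 and 55.3% for Pkd2.

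Levels were compared between genes per kilobase of the gene length in the liver table. In WT livers the order began with Tmem63b, at 13.1 ± 3.41 CPM per kilobase (SD, n = 2). Tmem63a at 5.32 ± 0.626 and Trpm7 at 4.93 ± 0.389 CPM per kilobase (SD, n = 2) followed, and their ranges overlapped. Pkd2 at 3.43 ± 0.0233 and Pkd1 at 3.25 ± 0.553 CPM per kilobase (SD, n = 2) also overlapped, close to the median of 3.15 CPM per kilobase over all 15118 genes tested. Piezo1 lay below that median at 2.16 ± 0.313 CPM per kilobase, above Trpv2 at 1.55 ± 0.150 and Trpv4 at 0.705 ± 0.0744 CPM per kilobase (SD, n = 2 for each), with no overlap between these neighbours. Piezo2 (0.109 ± 0.00752 CPM per kilobase) and Trpc1 (0.0483 ± 0.0138 CPM per kilobase, both SD, n = 2) were the lowest. Trpc1 had between 4 and 14 counts in the 8 livers and did not pass edgeR's filter on low counts.

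The order in DMSO-treated PSCs began with Piezo1, at a deposited value of 1596 ± 136 per kilobase (SD, n = 3). Of the 14992 tested PSC genes with a length, 93.9% had a lower mean value per kilobase. The next, Tmem63a, stood at 640 ± 75.8 per kilobase, overlapping Tmem63b at 515 ± 61.6 and followed by Pkd2 at 493 ± 35.9 per kilobase (SD, n = 3 for each). Tmem63b and Pkd2 overlapped. Pkd1 at 401 ± 29.6 and Piezo2 at 391 ± 119 per kilobase overlapped, as did Piezo2 and Trpm7 at 368 ± 3.31 per kilobase (SD, n = 3 for each). Trpv2 at 93.3 ± 7.51 and Trpv4 at 83.4 ± 9.33 per kilobase overlapped below the median of 151 of all tested genes, and Trpc1 was the lowest at 27.9 ± 2.96 per kilobase (SD, n = 3 for each). Both tables were normalized separately, so their values are not compared directly. Within a library, however, the Piezo1 value per kilobase was 2.55 to 3.64 times that of Trpv4 in the WT livers and 15.6 to 22.6 times in DMSO-treated PSCs. The same ratio of Piezo1 to Piezo2 was 18.6 to 20.7 in the WT livers and 2.73 to 5.49 in DMSO-treated PSCs. The ratio of Tmem63b to Tmem63a was 2.20 to 2.70 in the WT livers and 0.683 to 1.06 in the PSCs.

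**Figure D1:**
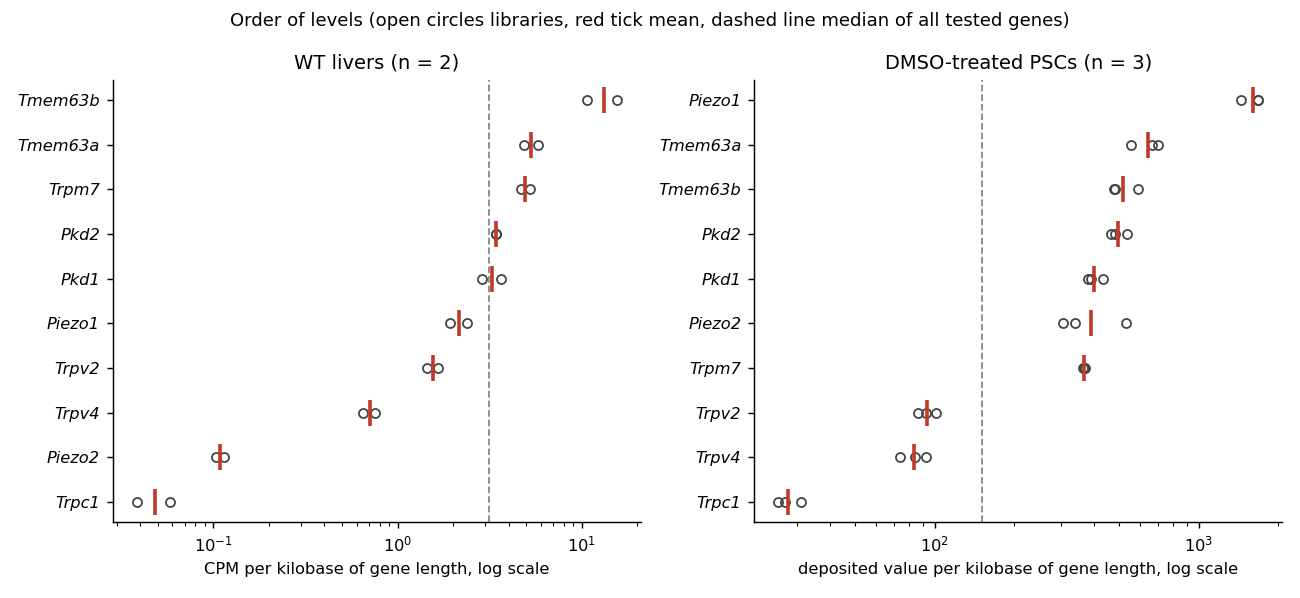
Levels of the 10 channel genes per kilobase of gene length on log axes, in CPM for the 2 WT livers and in deposited values for the 3 DMSO-treated PSC libraries. Open circles are libraries, red ticks means and the dashed line the median of all tested genes, which Piezo1 lies below in WT liver (2.16 against 3.15) and above in PSCs (1596 against 151).

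The comparison of TRPV4-KO with WT livers asks how loss of TRPV4 in the host changes the liver during tumor growth. Trpv4 itself, the deleted gene (ENSMUSG00000014158, chromosome 5 from 114622152 to 114658421, minus strand, GRCm38), had 43 and 53 counts in the WT livers. It had 15, 5 and 23 counts in the TRPV4-KO livers, so reads on the gene were fewer but present in every KO library. In CPM, WT livers had 2.87 ± 0.303 (SD, n = 2) and TRPV4-KO livers 0.868 ± 0.509 (SD, n = 3), which is 30.2% of the WT mean. The groups did not overlap. The log2 fold change of KO over WT was -1.71 (SE 0.50, 95% confidence interval -2.84 to -0.57), with an adjusted p of 0.16 by edgeR's quasi-likelihood test over all 15118 genes. DESeq2 gave the same gene an adjusted p of 0.036. Without TRPV4-KO replicate 3, the log2 fold change was -2.16, with an adjusted p of 0.0435 by edgeR, in a fit that called 8.64% of all genes. With each of the 5 livers left out in turn the adjusted p ran from 0.0435 to 0.603.

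None of the other channel genes passed the edgeR test either. Of the 9 channel genes tested, 0 had an adjusted p under 0.05, against 0.291% of all genes (44 of 15118), while 4 had an unadjusted p under 0.05, against 17.1% of all genes. DESeq2 called 2 of the 9, Trpv4 and Tmem63b, against 5.46% of all genes. For 5 of the 9 genes the TRPV4-KO and WT livers did not overlap, against 33.2% of all genes tested. The 5 were Tmem63b and Tmem63a, higher in the KO livers, and Piezo1, Trpv2 and Trpv4, lower in them. With total counts in place of TMM, a choice made after the data were seen, Tmem63a overlapped and Piezo2 was lower without overlap, so that 5 of 9 again stood apart, against 33.8% of all genes.

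Tmem63b, the osmosensitive channel gene (ENSMUSG00000036026, chromosome 17 from 45660171 to 45686905, minus strand), had 54.7 and 79.3 CPM in WT livers. It had 108, 105 and 108 CPM in TRPV4-KO livers, a narrow range that lay above both WT livers. Its log2 fold change of KO over WT was 0.68 (SE 0.17, adjusted p = 0.14 by edgeR, 0.019 by DESeq2). Without WT replicate 1 it was 0.42 (adjusted p = 0.698 by edgeR), and without WT replicate 2 it was 0.96 (adjusted p = 0.166). Its paralog Tmem63a (ENSMUSG00000026519, chromosome 1 from 180942344 to 180975112, plus strand) had 21.9 and 25.9 CPM in WT livers and 26.7, 28.3 and 38.5 CPM in KO livers. The KO livers lay just above WT, with replicate 3 apart from the other two, and the log2 fold change was 0.38 (SE 0.19, adjusted p = 0.34 by edgeR). Mrpl14 overlaps Tmem63b on the opposite strand with at most 827 counts per liver. The counting is not stated to use strand, so reads of such partners cannot be told apart. The same holds for Pkd1 with Tsc2, at most 1366 counts, and for Piezo1 with Ctu2, at most 201 counts.

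Piezo1 (ENSMUSG00000014444, chromosome 8 from 122481698 to 122551329, minus strand) had 23.6 and 19.2 CPM in WT livers. In TRPV4-KO livers it had 11.4, 11.3 and 17.6 CPM, all below WT, with replicate 3 closest to it. The log2 fold change was -0.67 (SE 0.26, adjusted p = 0.25 by edgeR). With 1 of the 5 livers left out it ran from -0.92 (adjusted p = 0.0495 by edgeR, without TRPV4-KO replicate 3, where 8.64% of all genes were called) to -0.53 (adjusted p = 0.805, without WT replicate 1). Trpv2, a channel gene well expressed in macrophages (ENSMUSG00000018507, chromosome 11 from 62574486 to 62600515, plus strand), had 7.42 and 6.47 CPM in WT livers. In TRPV4-KO livers it had 3.48, 1.55 and 5.09 CPM, all below WT and spread widely. This gave a log2 fold change of -1.03 (SE 0.45, adjusted p = 0.29 by edgeR).

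The remaining members overlapped between TRPV4-KO and WT livers. Trpm7, the channel-kinase gene, had 52.7 and 58.9 CPM in WT and 76.9, 70.7 and 57.6 CPM in KO livers, a log2 fold change of 0.29 (SE 0.17, adjusted p = 0.43 by edgeR). Pkd1 and Pkd2, the polycystin genes, had log2 fold changes of 0.26 (SE 0.20, adjusted p = 0.56) and -0.06 (SE 0.15, adjusted p = 0.88 by edgeR). The 95% confidence interval of Pkd2 ran from -0.40 to 0.28. Piezo2 had only 8 to 27 counts per WT or KO liver, and its 95% confidence interval ran from -1.82 to 0.83.

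GSK219 livers were compared with WT livers to ask whether blocking TRPV4 with a drug does what its deletion does. This comparison shares both WT livers with the previous one, so the values of the 3 groups are given side by side and the fold changes are not set against each other. Trpv4 had 20, 30 and 36 counts in GSK219 livers, or 1.74 ± 0.451 CPM (SD, n = 3), below both WT livers. Its log2 fold change was -0.72 (SE 0.48, 95% confidence interval -1.82 to 0.38, adjusted p = 0.77 by edgeR). Piezo1 had 10.0, 14.3 and 16.4 CPM in GSK219 livers, again below WT, with a log2 fold change of -0.66 (SE 0.26, adjusted p = 0.57 by edgeR). Trpv2 had 1.89, 3.26 and 3.35 CPM, below WT in every liver, with a log2 fold change of -1.29 (SE 0.45, adjusted p = 0.54 by edgeR). Tmem63b had 105, 83.5 and 90.3 CPM, above both WT livers, with a log2 fold change of 0.47 (SE 0.17, adjusted p = 0.56 by edgeR), or 0.24 without WT replicate 1 and 0.78 without WT replicate 2.

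Of the 9 genes tested between GSK219 and WT livers, 0 were called by edgeR, against 0.0% of all genes, and 3 had an unadjusted p under 0.05, against 8.22% of all genes. DESeq2 called 0 of the 9. Over all genes edgeR called 0 of 15118, with 1242 at an unadjusted p under 0.05, and DESeq2 called 116, or 0.767%. Trpv4, Trpv2 and Piezo1 below WT and Tmem63b above it made 4 of 9 genes whose groups did not overlap, against 27.3% of all genes tested. The same 4 stood apart with total counts in place of TMM, against 26.7% of all genes. The other 5 genes tested overlapped. Trpm7, Pkd1 and Tmem63a had log2 fold changes of 0.01, 0.00 and -0.02, with 95% confidence intervals that reached from -0.46 to 0.46 for Pkd1, the widest of the 3. Pkd2 stood at 0.16 (SE 0.15, adjusted p = 0.87 by edgeR) and Piezo2 at 0.08 (SE 0.57, adjusted p = 0.99 by edgeR), again as log2 fold changes.

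TRPV4-KO and GSK219 livers were also compared directly. Trpv4 had 0.324 to 1.33 CPM in KO livers and 1.26 to 2.15 CPM in GSK219 livers, ranges that met at their ends. Its log2 fold change of KO over GSK219 was -0.99 (SE 0.47, adjusted p = 0.86 by edgeR). Piezo1 had a log2 fold change of -0.01, with a 95% confidence interval of -0.56 to 0.53. Tmem63a at 0.40 (SE 0.16, adjusted p = 0.80 by edgeR) and Tmem63b at 0.20 (SE 0.15, adjusted p = 0.95 by edgeR) were the 2 of 9 genes whose groups did not overlap, both higher in KO livers, against 10.2% of all genes tested. Both overlapped with total counts in place of TMM, where 0 of 9 genes stood apart, against 10.1% of all genes. edgeR called 0 of the 9 genes, against 0.106% of all genes (16), with 1 at an unadjusted p under 0.05, against 6.12% of all genes, and DESeq2 called 0 of the 9, against 0.9% of all genes. The log2 fold changes of the overlapping genes were 0.29 for Trpm7 (SE 0.16, adjusted p = 0.89), 0.26 for Pkd1 (SE 0.18, adjusted p = 0.94) and -0.22 for Pkd2 (SE 0.13, adjusted p = 0.90 by edgeR). Trpv2 stood at 0.26 (SE 0.42, adjusted p = 0.98) and Piezo2 at -0.57 (SE 0.52, adjusted p = 0.96 by edgeR).

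**Figure D2:**
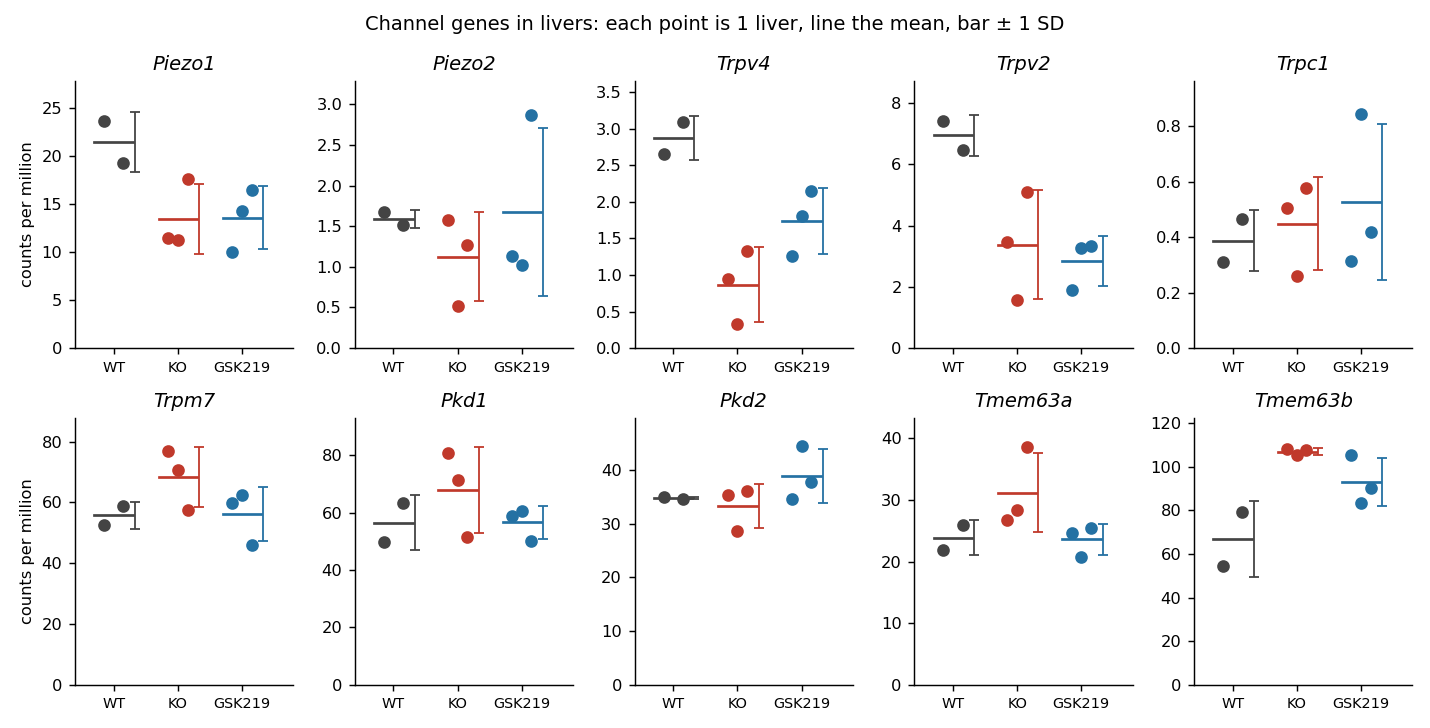
CPM of the 10 channel genes in each of the 8 livers, by group, with the mean as a line and ± 1 SD as a bar, on linear axes from 0. Trpv4, Trpv2 and Piezo1 of every KO and GSK219 liver lie below both WT livers, and Tmem63b lies above them.

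Markers of other liver cells were compared between the same groups. In bulk tissue, fewer cells of a type and less RNA per cell cannot be told apart. The summed level of 8 Kupffer cell and macrophage markers was 1569 to 1791 CPM in WT livers, 443 to 972 CPM in TRPV4-KO livers and 475 to 1135 CPM in GSK219 livers. All 8 had negative log2 fold changes in KO against WT livers (median -1.31, against 0.01 over all genes), though 0 of the 8 passed the edgeR test, with 8 at an unadjusted p under 0.05 and 7 called by DESeq2. In GSK219 against WT livers edgeR called 0 of the 8, with 6 at an unadjusted p under 0.05, and DESeq2 called 0. Clec4f, which defines Kupffer cells, stood at 428 ± 2.60 CPM (SD, n = 2) in WT and 167 ± 64.5 CPM (SD, n = 3) in KO livers. The summed level of 7 endothelial markers was 448 to 497 CPM in WT, 284 to 442 CPM in KO and 330 to 459 CPM in GSK219 livers, which overlapped WT. That of 10 stellate cell and fibroblast markers was 391 to 488 CPM in WT, 155 to 337 CPM in KO and 218 to 350 CPM in GSK219 livers. In KO against WT livers edgeR called 0 of the endothelial and 0 of the stellate cell markers, with 3 and 4 at an unadjusted p under 0.05, and DESeq2 called 1 of each list. In GSK219 against WT livers edgeR and DESeq2 called 0 of both lists, with 1 and 3 at an unadjusted p under 0.05. Neutrophil markers summed to 42.2 to 50.1 CPM in WT, 1.52 to 6.14 CPM in KO and 2.27 to 5.20 CPM in GSK219 livers. Of the 6 tested, edgeR called 2 lower in KO livers and 0 in GSK219 livers, where all 6 had an unadjusted p under 0.05 and DESeq2 called 5. Hepatocyte markers summed to 51210 to 66415 CPM in WT, 70376 to 90354 CPM in KO and 72661 to 81127 CPM in GSK219 livers. Alb made up the difference between KO and WT, with a mean of 38006 CPM in WT and 66647 CPM in KO livers, while Fgb and Apoa1 were at lower means in KO livers. The 6 hepatocyte markers had a median log2 fold change of 0.085 in KO against WT livers. edgeR called 0 of them, with 2 at an unadjusted p under 0.05, and DESeq2 called Alb and Fgb.

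Within every group the liver with more macrophage marker RNA also had more Piezo1 and more Trpv2. The highest of each group in all 3 measures was also its 1 liver with Xist reads. Among TRPV4-KO livers, replicate 3 had the highest marker sum (972 CPM), Piezo1 (17.6 CPM) and Trpv2 (5.09 CPM), and replicate 2 the lowest (443, 11.3 and 1.55 CPM). Among GSK219 livers, replicate 1 was the lowest on all 3 measures (475, 10.0 and 1.89 CPM), and replicate 3 the highest (1135, 16.4 and 3.35 CPM). Trpv4 followed the same order in the KO and GSK219 livers but not in WT, where the liver with the lower marker sum had 3.09 CPM and the other 2.66 CPM. Only the macrophage list was set against the channel genes liver by liver. The summed stellate cell and neutrophil markers of the KO and GSK219 livers also lay below those of WT. The part of cell composition in the channel levels was not tested.

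**Figure D3:**
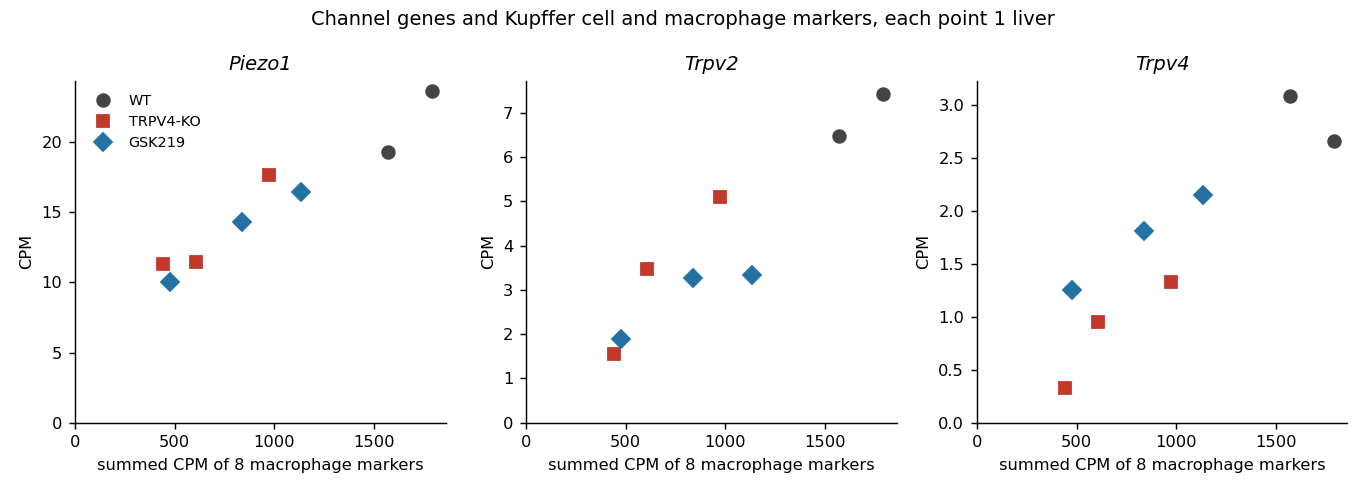
Piezo1, Trpv2 and Trpv4 in CPM (vertical axes) against the summed CPM of 8 Kupffer cell and macrophage markers (horizontal axes), each point 1 liver, with WT as circles, TRPV4-KO as squares and GSK219 as diamonds. The 2 WT livers lie at the right at 1569 and 1791 CPM, and the other 6 livers lie between 443 and 1135 CPM.

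Each group held 1 liver with Xist reads, so differences in CPM were also taken within the Xist-positive livers, with 1 liver per group and no spread, and within the others, with 1 WT, 2 KO and 2 GSK219 livers. For Trpv4 the log2 difference of TRPV4-KO minus WT was -0.998 in the first set and -2.28 in the second. For Trpv2 the same differences were -0.54 and -1.36, and for Piezo1 they were -0.43 and -0.76. For Tmem63b they were 0.98 and 0.43, and for Tmem63a 0.81 and 0.09. The KO and WT livers of these 5 genes did not overlap, which fixes the direction in both sets. Of the other 5 genes, Trpc1 (0.91 and -0.29) and Pkd2 (0.05 and -0.11) had opposite directions, while Piezo2, Trpm7 and Pkd1 had the same one. For GSK219 minus WT, the differences were -0.31 and -1.01 for Trpv4, -1.15 and -1.33 for Trpv2, -0.52 and -0.67 for Piezo1 and 0.72 and 0.25 for Tmem63b, genes whose groups did not overlap either. Tmem63a (0.21 and -0.19), Piezo2 (0.78 and -0.49), Trpm7 (-0.20 and 0.06) and Pkd1 (0.01 and -0.08) had opposite directions in this comparison. The difference between the sets was not tested.

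Some genes followed the pattern of a channel gene over the 8 livers closely. Over 15118 genes, the 3 with the highest Pearson r of log2 CPM with Trpv4 were Prss23 (0.98), Gm13994 (0.98) and Asb4 (0.98). For Piezo1 they were Samsn1 (0.99), Trim30a (0.99) and Slfn5 (0.99). Each r is over 8 livers that share 3 groups and the cell composition above, and it is a description.

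Other ion channels and their partners were taken from 6 lists of 78 genes. Of these, 46 were tested in livers, and edgeR called 0 of the 46 in each of the 3 comparisons. In KO against WT livers, 9 of the 46 had an unadjusted p under 0.05, against 17.1% of all genes, and DESeq2 called 1, Slc41a2, against 5.46%. For GSK219 against WT and for KO against GSK219, 4 and 3 of the 46 had an unadjusted p under 0.05, against 8.22% and 6.12% of all genes, and DESeq2 called 0 of the 46 in both, against 0.767% and 0.9%. Trpm2, the oxidative stress-gated TRP channel, had 28.3 ± 6.63 CPM in WT (SD, n = 2) and 14.0 ± 3.83 CPM in KO livers (SD, n = 3), a log2 fold change of -1.02 (SE 0.37, adjusted p = 0.23 by edgeR). The lysosomal channel gene Mcoln1 had a log2 fold change of 0.24 (SE 0.12, adjusted p = 0.35). The 5 tested genes of the list of other TRP channels had a median log2 fold change of -0.87. For the 7 volume-regulated and calcium-activated anion channels tested the median was -0.69, against 0.01 over all genes, with Clcn3 at 0.27 and Lrrc8d at -0.35. The 11 other mechanosensitive cation channels had a median of -0.34, among them the sodium channel subunit Scnn1a at 0.46 and Tmem120a at -0.15. The 3 PIEZO partners and regulators had a median of -0.28, with Mdfic, a PIEZO-binding protein gene, at -0.28 and the calcium pump Atp2a2 at 0.02. For the 11 genes of polycystins and their processing it was 0.00, with the glucosidase subunit Ganab at 0.07 and Sec63 at 0.01. For the 9 magnesium transporters it was -0.23, with Magt1 at 0.08 and Slc41a2 at 129 ± 11.0 CPM in WT (SD, n = 2) and 82.3 ± 6.54 CPM in KO livers (SD, n = 3).

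Yoda1 was compared with DMSO in PSCs to ask what PIEZO1 activation changes in these cells. Values here are the deposited ones, counts divided by a size factor per library. Trpv2 was the channel gene that passed the test. It had 454, 387 and 414 with DMSO in preparations 1, 2 and 3, and 229, 189 and 213 with Yoda1. The treatments did not overlap, and the Yoda1 value was close to 50% of its own DMSO partner in each preparation. Trpv2 fell by 0.99 on the log2 scale (SE 0.11, adjusted p = 0.012 by limma), to 50.3% of the DMSO mean. With the preparation as a block the SE was 0.08 and the adjusted p 0.0023. The call was lost without DMSO replicate 1, DMSO replicate 2 or Yoda1 replicate 2, where the adjusted p rose to at most 0.069 by limma. The log2 fold changes in these fits were -0.929, -1.044 and -0.915. A threshold that also asks for a log2 fold change over 1 was not met.

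Of the 10 channel genes, 1 was called by limma, against 4.66% of all 15145 genes tested. With the preparation as a block, 4 of 10 were called, against 18.2% of all genes. In 5 of 10 genes the treatments did not overlap, against 30.0% of all genes. These were Pkd2, higher with Yoda1, and Trpv2, Piezo2, Tmem63a and Pkd1, lower with it. Scaled by total reads, Piezo2 and Tmem63a overlapped, and the 5 without overlap were Pkd2, Trpv4 and Tmem63b, higher with Yoda1, and Trpv2 and Pkd1, lower with it, against 35.6% of all genes.

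Piezo2, the second PIEZO channel gene (ENSMUSG00000041482, chromosome 18 from 63010213 to 63387183, minus strand), had 4460, 4952 and 7682 with DMSO and 3461, 3228 and 4338 with Yoda1. Each preparation was lower with Yoda1, preparation 3 being the highest under both treatments. The log2 fold change was -0.60 (SE 0.22, adjusted p = 0.17 by limma), and with the preparation as a block the SE was 0.09 and the adjusted p 0.011. Tmem63a had 3146, 2988 and 2493 with DMSO and 2424, 2201 and 1566 with Yoda1, lower in each preparation. This gave a log2 fold change of -0.50 (SE 0.17, adjusted p = 0.16 by limma), and with the block the adjusted p was 0.0078. Tmem63b had 2440, 2451 and 2990 with DMSO and 2740, 2840 and 3382 with Yoda1, higher in each preparation but overlapping between treatments. Its log2 fold change was 0.19 (SE 0.11, adjusted p = 0.38 by limma), and with the block the adjusted p was 0.038. The level per kilobase of Tmem63b was 0.683 to 1.06 times that of Tmem63a with DMSO and 0.996 to 1.90 times with Yoda1.

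Trpv4 had 343, 301 and 376 with DMSO and 365, 402 and 576 with Yoda1. It was higher with Yoda1 in each of the 3 preparations, with log2 ratios of 0.09, 0.42 and 0.61, while the treatments overlapped. The log2 fold change was 0.37 (SE 0.19, adjusted p = 0.29 by limma), and with the block the adjusted p was 0.072. Piezo1, which encodes the target of Yoda1, had 16698, 16580 and 14295 with DMSO and 16018, 15077 and 13819 with Yoda1. Each preparation was lower with Yoda1 by little, and the treatments overlapped. This gave a log2 fold change of -0.08 (SE 0.09, 95% confidence interval -0.29 to 0.13, adjusted p = 0.62 by limma). The value of Trpv4 per kilobase was 0.831 to 1.00 times that of Trpv2 in the DMSO libraries and 1.76 to 2.97 times in the Yoda1 libraries.

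Pkd1 had 6768, 6613 and 7573 with DMSO and 6008, 5745 and 4885 with Yoda1, lower in each preparation. Its log2 fold change was -0.34 (SE 0.10, adjusted p = 0.10 by limma, 0.072 with the block). Its partner Pkd2 had 4723, 4887 and 5422 with DMSO and 5658, 5739 and 5631 with Yoda1, higher in each preparation. The log2 fold change was 0.18 (SE 0.06, adjusted p = 0.16 by limma, 0.076 with the block). The Pkd2 value per kilobase was 1.20 to 1.27 times that of Pkd1 with DMSO and 1.61 to 1.97 times with Yoda1, so the polycystin pair did not overlap in this ratio. Trpm7 and Trpc1 had log2 fold changes of -0.10 (SE 0.08, adjusted p = 0.46) and -0.17 (SE 0.12, adjusted p = 0.45 by limma), each lower with Yoda1 in 2 of 3 preparations.

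Scaling by total reads in place of the deposited size factors, chosen after the data had been seen, moved the median log2 fold change of all tested genes from -0.01 to 0.11. It called 1193 genes (914 higher and 279 lower, or 7.87% of those tested), against 331 higher and 374 lower with the deposited factors. Piezo1 and Trpm7 changed sign, to 0.03 and 0.01. Pkd2 was then called as well, with a log2 fold change of 0.30 and an adjusted p of 0.032 by limma. With the block as well, 6 of the 10 genes were called, against 23.4% of all genes, among them Trpv4, with a log2 fold change of 0.49 and an adjusted p of 0.035.

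**Figure D4:**
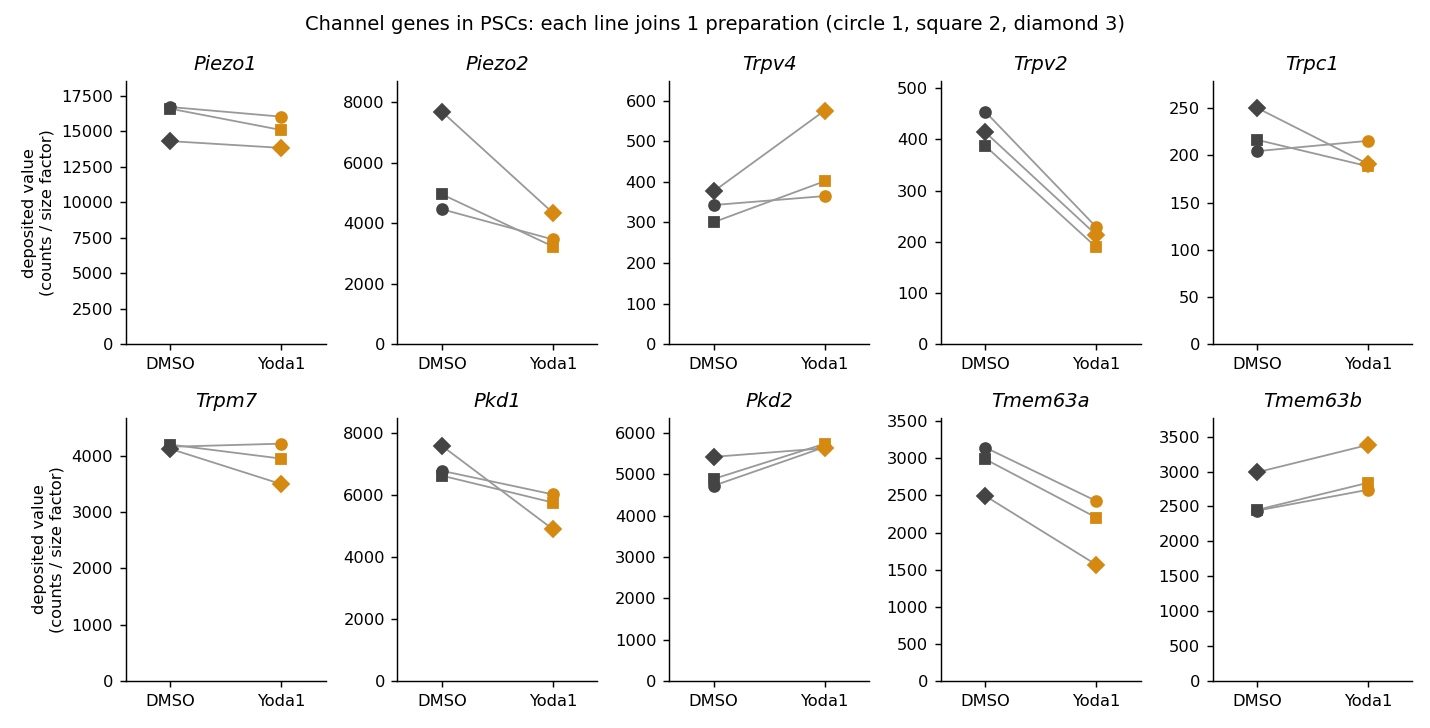
Deposited values (counts divided by a size factor) of the 10 channel genes in PSCs on linear axes from 0, each line joining the DMSO and Yoda1 libraries of 1 of 3 preparations. All 3 lines of Trpv2 drop to near 50% of their DMSO value, and all 3 lines of Trpv4 go up.

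Markers of cell types also differed with Yoda1 in the PSCs. The summed deposited value of the 8 stellate cell and fibroblast markers analysed was 813674 to 908930 with DMSO and 403706 to 514129 with Yoda1, and 5 of the 8 were called lower by limma. Col1a1 was the largest part of the sum, with means of 425736 and 236584. Of the 8, 2 had positive log2 fold changes and were not called. These were Reln (10.0 ± 6.17 with DMSO and 29.0 ± 5.87 with Yoda1) and Des (3513 ± 999 and 3661 ± 874, SD, n = 3 for each). The 5 endothelial markers analysed summed to 1738 to 2105 with DMSO and 1157 to 1383 with Yoda1. The lower sum came from Kdr, at 1586 ± 295 with DMSO and 758 ± 142 with Yoda1 (SD, n = 3 for both), which limma called lower. The other 4 had higher means with Yoda1, and Lyve1 was called higher (10.9 ± 2.71 and 41.9 ± 14.0, SD, n = 3 for both). Macrophage markers summed to 2504 to 2702 with DMSO and 2306 to 3460 with Yoda1, and 0 of the 4 tested were called by limma or by edgeR, with 0 at an unadjusted p under 0.05. Among them Csf1r stood at 394 ± 86.0 with DMSO and 300.3 ± 76.5 with Yoda1, and Cd68 at 236 ± 31.8 and 428 ± 216 (SD, n = 3 for each), while Adgre1 and Clec4f were not analysed here. The 4 mesothelial markers summed to 38131 to 44851 with DMSO and 33513 to 56762 with Yoda1. Msln, which encodes mesothelin, was the 1 of these called by limma and by edgeR, at 3137 ± 327 with DMSO and 6080 ± 498 with Yoda1 (SD, n = 3 for both), and the other 3 had negative log2 fold changes. The 6 acinar markers analysed summed to 1080 to 6402 with DMSO and 1315 to 12717 with Yoda1, with 0 called by either tool and 0 at an unadjusted p under 0.05. The part of these markers in the channel values was not tested.

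Of the 78 listed channel and partner genes, 52 were tested in PSCs, and limma called 1, Tmc6, a member of the TMC family, against 4.66% of all genes. It had a value of 817 ± 43.4 with DMSO and 1148 ± 92.0 with Yoda1 (SD, n = 3 for both), and it rose by 0.49 on the log2 scale (SE 0.08, adjusted p = 0.027 by limma). With the preparation as a block, 7 of the 52 were called, against 18.2% of all genes. Tmc6, the lysosomal channel gene Mcoln1 (0.41), Tmem120a (0.26), the anion channel subunit Lrrc8d (0.29) and the glucosidase subunit Prkcsh (0.25) were higher with Yoda1, and Bicc1 (-0.32) and Alg8 (-0.26) were lower, all as log2 fold changes. Of the other TRP channels, 0 of 8 passed limma without the block, with 2 at an unadjusted p under 0.05, against 22.7% of all genes, and 0 called by edgeR on the recovered reads, against 4.55% of all genes. Trpm4 of this list had a log2 fold change of 0.29 (SE 0.09, adjusted p = 0.13 by limma). No gene of the lists of PIEZO partners and magnesium transporters had an unadjusted p under 0.05, and edgeR on the recovered reads called 0 of them. Atp2a2 stood at 0.04 (SE 0.06), Mdfic at -0.18 (SE 0.13), Magt1 at -0.10 (SE 0.08) and Cnnm4 at -0.02 (SE 0.18), all log2 fold changes of Yoda1 over DMSO. The anion channel genes Ano6 and Lrrc8c stood at -0.06 (SE 0.06) and -0.15 (SE 0.08), and the polycystin-processing genes Ganab and Sec63 at -0.04 (SE 0.06) and -0.01 (SE 0.07).

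**Figure D5:**
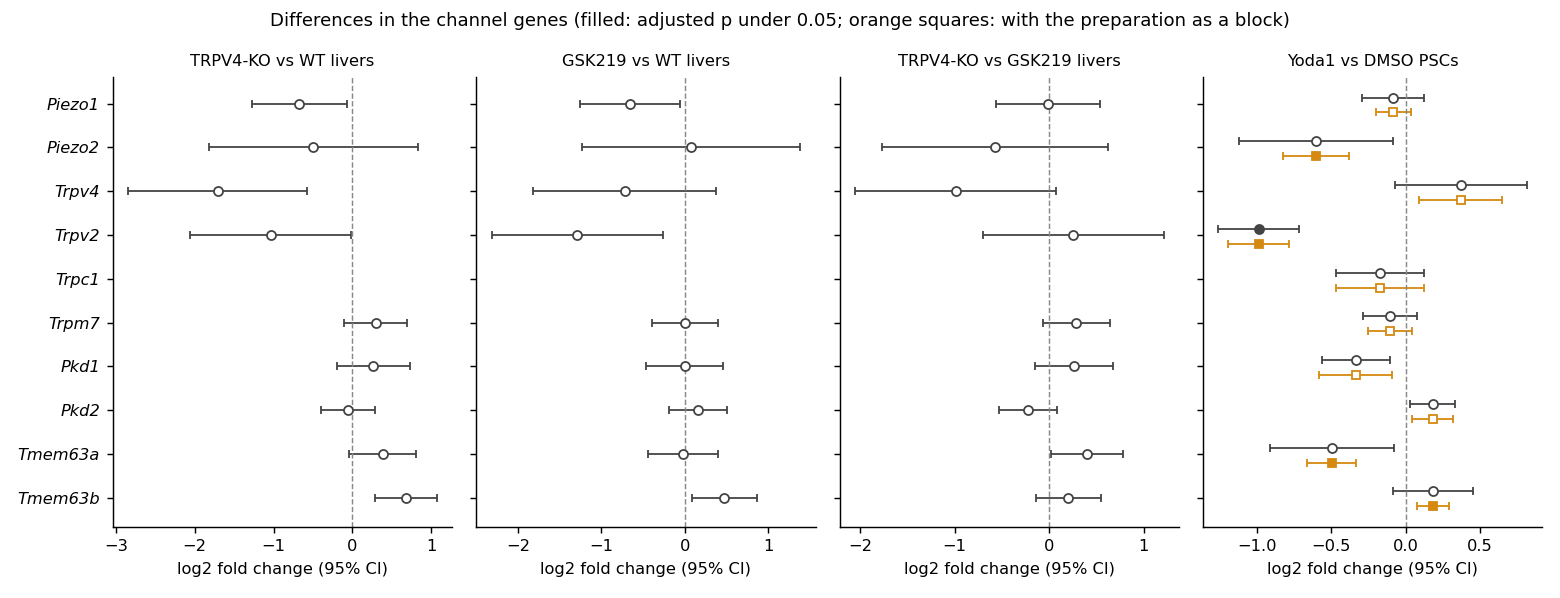
Log2 fold changes of the 10 channel genes with 95% confidence intervals (horizontal axes) in the 3 liver comparisons by edgeR and in the PSC comparison by limma, filled where the adjusted p is under 0.05. Orange squares give PSC values with the preparation as a block. The black symbol of Trpv2 in PSCs, at -0.99, is filled, and the blocked fit fills 4 of 10.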

How the data were processed

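The channel genes and the lists were chosen with earlier results of these data known. For the livers, the authors deposited whole-number counts per gene, without normalization, with GRCm38 coordinates and gene lengths. Another 7 count columns, whose names fit no sample described here, were left out. The PSC values deposited by the authors are a signal, which the values show to be counts divided by 1 size factor per library. Of 98886 values, 100% were whole multiples of 1 step per library (tolerance 0.001). The step of DMSO replicate 3 was 1.01, close to 1, and that of the other libraries 0.802 to 1.25. The recovered reads of all 6 libraries were used in alternative fits only. The PSC file also holds the authors' own fold changes and p-values, which were not used. The submitters' processing notes name HISAT2 2.0.5 and Trim Galore. The counting tool is not given in the sources used here, and neither the labels nor the paper names a test for the RNA-Seq counts.

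Samples were grouped by their labels. Liver counts were fitted in 1 model over 8 livers with edgeR 4.0.16 in R 4.3.3 (TMM, filter at a minimum count of 10, robust quasi-likelihood). PSC values were tested with limma 3.58.1 on log2 of the value plus 1, for genes at 10 or more in at least 3 libraries. p-values were adjusted by Benjamini-Hochberg over all genes tested, and a gene was called at an adjusted p under 0.05. Each PSC DMSO library shares a code name with 1 Yoda1 library (3 pairs, called preparations here), and the pairs deviated together (correlations across genes of 0.43, 0.26 and 0.53), so blocked values are given. Replicates of a group differed by more than counting noise. Both fits were tested on simulated data. Every channel gene tested was named in each comparison. For TRPV4-KO against WT livers and for PSCs, at most 4 called genes of each list were named, by smallest p. Where none was called, the 2 of the highest mean level were named. No list gene was named for the other liver comparisons. Genes called only with the block or only by DESeq2, marker genes and Xist fall outside this rule. Alternatives were DESeq2 1.42.0, other normalizations, filters and pseudocounts, only the groups compared, a term for Xist reads, the replicate block, a fold threshold and each library left out. Scaling PSCs by total reads, and counts of genes without overlap scaled by totals, were added after the data were seen.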

Additional observations from a re-analysis of the deposited data

How the results depend on the processing

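With the 44 genes called in TRPV4-KO against WT livers, DESeq2 called 826, the fit without a filter 198, the replicate block 531, the term for Xist reads 535 and the fit of only those groups 20. For GSK219 against WT (0 called) the same settings gave 116, 9, 9, 4 and 2, and for TRPV4-KO against GSK219 (16 called) DESeq2 gave 136, no filter 44 and the Xist term 45. In PSCs (705 called), the replicate block gave 2760, edgeR on the recovered reads with the block 2735, the fold threshold 230, and total-count scaling 1193, or 3544 with the block. With 1 library left out, 3 to 1291 genes were called in TRPV4-KO against WT livers (1291 without TRPV4-KO replicate 3 and 3 or 4 without a WT liver), 0 to 2 in GSK219 against WT, 8 to 141 in TRPV4-KO against GSK219 (141 without TRPV4-KO replicate 3) and 37 to 1054 in PSCs (1054 without Yoda1 replicate 3 and 37 without Yoda1 replicate 2). Among the channel genes, DESeq2 called 2 in KO against WT livers, with Trpv4 at -1.72, and leaving out 1 library gave 0 to 2 calls and -2.16 to -1.33 for Trpv4. In PSCs the number called was 4 with the replicate block, 4 by edgeR with it, 0 with the fold threshold, 2 with total-count scaling, 6 with that and the block, and 0 to 1 with 1 library left out.

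In GSK219 against WT livers, several genes changed sign. Tmem63a was at 0.02 without a filter and at 0.00 with the Xist term, Trpm7 at -0.057 and Pkd1 at -0.056 with the Xist term, and Piezo2 at -0.37 with the replicate block. With 1 library left out, Trpm7 ranged from -0.076 to 0.13, Pkd1 from -0.15 to 0.20, Tmem63a from -0.12 to 0.12 and Piezo2 from -0.56 to 0.33. In KO against WT livers Pkd2 ranged from -0.12 to 0.039. In KO against GSK219 livers, Piezo1 ranged from -0.26 to 0.15, Trpv2 from -0.17 to 0.60 and Piezo2 from -0.89 to 0.061. With total-count scaling in PSCs, Piezo1 was at 0.034 and Trpm7 at 0.013, with and without the block. The labels link same-numbered livers to no shared batch, and whether they share one is not stated, so the livers were not paired. Correlations of same-numbered livers were -0.43 and -0.48 for WT replicate 1 with TRPV4-KO and GSK219, and 0.53 and 0.31 for WT replicate 2. Between TRPV4-KO and GSK219 they were 0.29, 0.16 and 0.58. The 2 WT livers were centred on their own mean, so their deviations mirror each other. The replicate block of the livers changed no call of a channel gene. The causes were not tested. WT has 2 livers, and Trpc1, Piezo2 and Trpv4 had 4 to 53 counts per liver.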
